A study of Mus musculus with 60 samples.

Results

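The genes of MHC class II antigen presentation were followed through mouse liver regeneration. They are 7 genes out of 17473 listed for liver and 19355 listed for hepatocytes and cultured hepatic cells, namely the class II chains H2-Aa, H2-Ab1 and H2-Eb1, the invariant chain Cd74, the H2-DM chains H2-DMa and H2-DMb1, and the transactivator Ciita. They were selected on the high level of Cd74 in liver at day 7 after surgery, so the comparison of that day with Normal liver chose them and is described here without a test.

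Liver came from wild-type (WT) C57BL/6 mice (C57BL/6J in the methods) aged 8–10 weeks. It was taken without surgery (Normal liver) or after removal of 2/3 of the liver by partial hepatectomy (PHX), with groups named PHX-6h and PHX-24h for hours and PHX-D3, PHX-D7 and PHX-D14 for days. There were 3 samples in each of the 6 groups. The sources used here do not say whether samples of a group came from separate mice, so the tests measure the spread between these samples. There was no sham-operated group, so the operation and the loss of liver mass cannot be told apart. The labels give the cultured cells the same genotype and strain, with 3 samples in each of 11 groups that the study calls technical repeats. Hepatocytes were primary cells purified after perfusion. IL6-iHPCs are hepatic progenitor cells induced from hepatocytes in medium with IL6, EGF, HGF, ITS and dexamethasone, sampled at D3 and D14 of primary culture (P0) and as lines from mouse-1 (P10 and P35), mouse-2 (P10) and clone-1 (P20), where P is the passage and the clone arose from a single hepatocyte. The methods take single-cell clones from mice with an Albumin-Cre and a tdTomato reporter allele, whereas the label of clone-1 reads WT. IL6-iMHs are the same 4 lines after culture in a hepatic maturation medium.

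MHC class II molecules are pairs of an alpha and a beta chain that carry peptides from ingested proteins to the cell surface for CD4+ T cells. The invariant chain holds the groove closed until the molecule reaches the endosome, H2-DM then exchanges the last invariant chain fragment for a peptide, and Ciita, which interferon-gamma induces, is the master switch of the whole set. In liver the genes are known from dendritic cells, B cells and Kupffer cells, the resident macrophages. In bulk liver, fewer cells of a type and less RNA per cell cannot be told apart.

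A library stood apart from its group. PHX-D3 replicate 2 had a correlation over genes of 0.902 and 0.882 with the other two PHX-D3 libraries, which correlated at 0.985 with each other, whereas all other pairs of liver replicates lay between 0.974 and 0.997. It held Chil3, a gene of recruited myeloid cells, at 99.5 FPKM against 0.382 and 0.37 in the other two, Marco, a macrophage receptor, at 162 against 37.1 and 20.6, and Alb at 21866 against 34331 and 53347. Differences at PHX-D3 are therefore given with and without it. Values are FPKM (fragments scaled to transcript length and to mapped reads). Setting the levels of different genes side by side therefore depends on the length used for each gene, which the sources used here do not give. Recovered sequencing depth on genes was 46.8 to 73.9 M reads in liver and 40.6 to 88.8 M in the cell samples, up to a common factor.

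Of the 7 genes, 5 lie together on chromosome 17 within 197 kb (GRCm38, GENCODE M21), in the order H2-DMa (chr17:34119541-34139101), H2-DMb1 (chr17:34153072-34160230), H2-Ab1 (chr17:34257689-34269419), H2-Aa on the minus strand (chr17:34282744-34287823) and H2-Eb1 (chr17:34305867-34316674). Ciita lies at chr16:10480059-10528418 and Cd74 on another chromosome. An antisense gene, Gm20513, overlaps H2-Eb1, Brd2 overlaps the annotated span of H2-DMa, and Dexi overlaps that of Ciita, all on the opposite strand. The span of H2-DMa also overlaps a processed pseudogene and 2 antisense genes, one of them on its own strand. Whether reads were counted by strand is not given in the sources used here, so reads in these overlaps could belong to either gene. H2-DMb1 has a close copy, H2-DMb2, with which reads could be shared.

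Class II promoters are known for an X box, bound by the RFX complex, and a Y box, bound by NF-Y, on which Ciita assembles without touching DNA itself. Promoter entries of these genes were looked up in RefSeq (GRCm38.p6) on chromosomes 16 and 17 only, so Cd74 was not covered. Entries were found for H2-Aa, H2-Eb1, H2-DMb1 and H2-DMa, and not for H2-Ab1 and Ciita. The 150 bases before the start are shown for 3 of them, because each holds the Y box letters; capitals mark the Y box letters TGATTGG and the X box letters AACNNATG, both searched on both strands and chosen after the sequences had been seen.
H2-Eb1: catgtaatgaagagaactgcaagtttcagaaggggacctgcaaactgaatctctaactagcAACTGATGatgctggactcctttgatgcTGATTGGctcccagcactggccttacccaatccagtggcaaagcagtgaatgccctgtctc
H2-DMb1: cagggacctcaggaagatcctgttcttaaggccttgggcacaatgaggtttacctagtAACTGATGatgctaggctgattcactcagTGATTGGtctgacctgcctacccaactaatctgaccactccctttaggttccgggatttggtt
H2-Aa: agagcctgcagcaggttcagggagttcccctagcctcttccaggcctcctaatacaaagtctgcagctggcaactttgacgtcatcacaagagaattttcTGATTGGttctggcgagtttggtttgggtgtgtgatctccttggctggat
These are chr17:34305717-34305866 (plus strand), chr17:34153041-34153190 (plus strand) and chr17:34287824-34287973 (minus strand). In H2-Eb1 the X box letters began at base -89 and the Y box letters at base -61 from the start, 20 bases apart, and in H2-DMb1 at -92 and -63, 21 bases apart. H2-Aa held the Y box letters at -50 and not the X box letters. The H2-DMb1 stretch ends at the RefSeq start, which lies inside the GENCODE span of the gene, so most of the stretch and both of its marked motifs overlap that span. Among 32851 promoters, 5.71% held the Y box letters, 4.43% the X box letters and 0.256% both in this stretch. Neither motif was found in the same stretch of either of the H2-DMa entries (chr17:34122682-34122831 and chr17:34125368-34125517). Both stretches lie wholly inside the GENCODE span of H2-DMa, so the absence holds for these stretches only. A match is a description of letters and no evidence of binding.

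The 3 class II chains were lower than in Normal liver through day 3 and highest at day 7. H2-Aa, the alpha chain of I-A, stood at 19.2, 23.8 and 37.7 FPKM in Normal liver, at 13.0, 10.7 and 10.5 in PHX-6h, at 4.01, 6.09 and 5.57 in PHX-24h and at 7.77, 1.48 and 7.62 in PHX-D3. All samples of these 3 times lay below all Normal samples, and the lowest was the PHX-D3 library that stood apart. At PHX-D7 H2-Aa was at 291, 234 and 219 FPKM and at PHX-D14 at 31.3, 36.9 and 40.2. The lowest PHX-D7 sample was 5.45-fold above the highest sample of any other group.

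H2-Ab1, the beta chain of I-A, had 15.5, 19.0 and 31.8 FPKM in Normal liver, 9.94, 9.52 and 7.65 in PHX-6h, 3.54, 4.99 and 4.38 in PHX-24h, and 6.78, 2.37 and 7.08 in PHX-D3. It reached 296, 247 and 239 FPKM in PHX-D7 and returned to 31.3, 35.7 and 43.7 in PHX-D14. The Normal and PHX-D14 ranges overlapped.

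H2-Eb1, the beta chain of I-E, was at 8.06, 10.2 and 14.5 FPKM in Normal liver, at 5.34, 6.01 and 4.38 in PHX-6h, at 2.23, 3.69 and 3.36 in PHX-24h, and at 3.33, 0.801 and 3.12 in PHX-D3. In PHX-D7 the values were 167, 135 and 133 FPKM and in PHX-D14 16.5, 20.2 and 22.0. PHX-D14 lay above Normal liver in all 3 samples without overlap.

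Cd74 was the most abundant gene of the set in every liver sample. It had 46.5, 59.8 and 93.5 FPKM in Normal liver, 24.9, 26.6 and 25.0 in PHX-6h, 10.1, 12.0 and 11.7 in PHX-24h, 15.3, 10.4 and 17.4 in PHX-D3, 734, 579 and 545 in PHX-D7, and 86.1, 100 and 100 in PHX-D14. From PHX-24h to PHX-D7 the group mean differed 54.9-fold. Normal replicate 3 was the highest of its group for Cd74 and all 3 chains.

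The peptide-loading chains were far less abundant. H2-DMa had 1.10, 1.12 and 1.93 FPKM in Normal liver, 0.452, 0.399 and 0.263 in PHX-6h, 0.560, 0.401 and 0.338 in PHX-24h, 0.859, 0.663 and 0.799 in PHX-D3, 16.7, 13.7 and 13.3 in PHX-D7, and 1.18, 1.61 and 1.48 in PHX-D14. Its partner H2-DMb1 had 1.90, 2.44 and 3.51 FPKM in Normal liver, 0.855, 1.21 and 0.607 in PHX-6h, 0.763, 0.913 and 1.19 in PHX-24h, 1.06, 1.5 and 1.35 in PHX-D3, 40.6, 31.7 and 33.3 in PHX-D7, and 3.04, 3.07 and 3.34 in PHX-D14. For both chains PHX-6h, PHX-24h and PHX-D3 lay below Normal liver without overlap, and PHX-D14 overlapped it. In recovered reads, Normal liver libraries held 207 to 372 for H2-DMa and 138 to 261 for H2-DMb1. The order of these chains in FPKM therefore depends on the lengths used.

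Ciita was scarce outside PHX-D7, at 0.322 FPKM or less. Its values were 0.15, 0.0829 and 0.143 FPKM in Normal liver, 0.0583, 0.0417 and 0.0214 in PHX-6h, 0.0962, 0.0904 and 0.105 in PHX-24h, 0.118, 0.0268 and 0.256 in PHX-D3, 2.70, 2.65 and 2.23 in PHX-D7, and 0.198, 0.322 and 0.116 in PHX-D14. In recovered reads this was 24 to 44 per library in Normal liver, 7 to 24 in PHX-6h, 664 to 1015 in PHX-D7 and 37 to 89 in PHX-D14. It passed the filter on low values (at least 1 FPKM in 3 samples) only through the PHX-D7 samples.

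**Figure D1:**
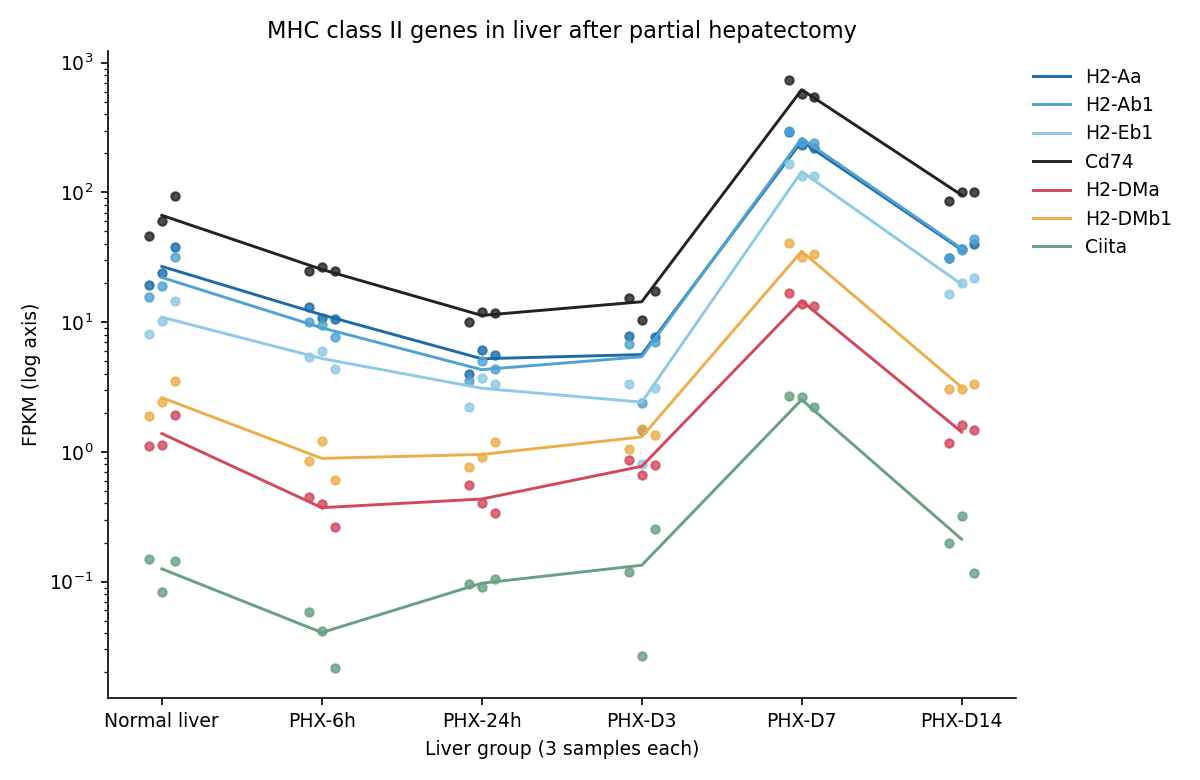
FPKM of the 7 genes (log axis) in each of the 18 liver samples by group; points are samples and lines join group means. The group means keep their order of abundance except where H2-Aa and H2-Ab1 cross, and in all 7 the 3 PHX-D7 samples are the highest.

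The first question was whether the set had changed in the first days, when hepatocytes divide. The 4 abundant genes were lower at 24 h, by 3.53 to 5.90-fold in group means, and the 3 scarce ones were not called on the scale used. A gene was called at an adjusted p under 0.05 and at least a 2-fold difference on the log2(FPKM + 1) scale in limma, with all groups in 1 fit. At PHX-24h the log2 difference from Normal liver was -2.40 ± 0.21 (SE, n = 3 per group) for Cd74 (limma adjusted p = 6.4e-06), -2.13 ± 0.37 for H2-Aa (0.00068), -2.07 ± 0.29 for H2-Ab1 (0.00017) and -1.52 ± 0.28 for H2-Eb1 (0.0011). Thus 4 of 7 genes fell, beside 4.16% of 11114 genes called lower and 3.74% called higher. The log2 differences of H2-DMa and H2-DMb1 were -0.72 ± 0.14 and -0.87 ± 0.16, with limma adjusted p-values of 0.0012 and 0.0011 but under 2-fold on this scale, which compresses low values. In group means they were 3.20-fold and 2.74-fold below Normal liver. With a pseudocount of 0.1 both were called lower (-1.45 and -1.34), and likewise with limma voom on recovered reads (-1.71 and -1.47), which makes 6 of 7. Ciita differed by -0.04 ± 0.09 (95% interval -0.24 to 0.17), and at its level in Normal liver a complete loss would also lie within this interval.

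At PHX-6h Cd74 fell by 1.29 on the log2 scale (SE 0.21, limma adjusted p = 0.00017), H2-Ab1 by 1.15 (SE 0.29, 0.0042) and H2-Aa by 1.12 (SE 0.37, 0.018). H2-Eb1 differed by -0.91 ± 0.28 and was not called. Ciita had a mean 3.09-fold below Normal liver, which was not called on this scale (-0.11 ± 0.09) nor by limma voom on recovered reads (-1.65, adjusted p = 0.071). Hence 3 of 7 genes were called lower, beside 11.5% of genes lower and 4.78% higher at this time. The median of all genes stood at -0.28 here, and after quantile normalization only Cd74 was called (log2 difference -1.05). The calls of H2-Aa and H2-Ab1 were also lost without Normal replicate 3, at -0.86 for both, and that of H2-Aa without PHX-6h replicate 3 (limma adjusted p = 0.051). With a pseudocount of 0.1, H2-Eb1, H2-DMa and H2-DMb1 were called too, at -1.01, -1.63 and -1.46. From 6 h to 24 h Cd74 fell further, by 1.11 on the log2 scale (limma adjusted p = 0.0013), and H2-Aa by 1.01 (0.043). H2-Ab1 differed by -0.92 (limma adjusted p = 0.022), under 2-fold, and H2-Eb1 by -0.62 (0.097). The differences of H2-DMa, H2-DMb1 and Ciita were 0.06, 0.05 and 0.08.

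At PHX-D3 the log2 differences were -2.10 ± 0.21 for Cd74, -2.23 ± 0.37 for H2-Aa, -1.89 ± 0.29 for H2-Ab1 and -1.87 ± 0.28 for H2-Eb1, with limma adjusted p-values from 3.1e-05 to 0.00069. These 4 of 7 were called lower, beside 2.49% of genes lower and 3.33% higher. Without the library that stood apart the differences were -1.90, -1.63, -1.48 and -1.46, and all 4 were still called. Fitted on the 2 groups alone, H2-Aa lost its call at an unchanged -2.23 (limma adjusted p = 0.053). H2-DMa differed by -0.41 ± 0.14 and H2-DMb1 by -0.63 ± 0.16, both under 2-fold, and by -0.36 and -0.69 without that library. Ciita differed by 0.01 ± 0.09, a direction that turned with a pseudocount of 0.1 (-0.06). Without the library that stood apart its difference was 0.08.

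The second question was whether the set came back to its starting level. At PHX-D14 no gene of the 7 was called, beside 0.981% of genes called higher and 2% lower. At an unadjusted p under 0.05 in the same limma fit, Cd74, H2-Ab1 and H2-Eb1 stood higher than in Normal liver, by 0.57 ± 0.21, 0.76 ± 0.29 and 0.81 ± 0.28, with adjusted p-values of 0.083, 0.088 and 0.059. Limma voom on recovered reads called 0 of the 7 as well. Without Normal replicate 3 H2-Ab1 (1.05) and H2-Eb1 (1.02) were called higher. The 95% intervals of H2-Aa (-0.32 to 1.24), H2-DMa (-0.25 to 0.32), H2-DMb1 (-0.12 to 0.57) and Ciita (-0.10 to 0.31) all included 0. Between PHX-D3 and PHX-D14 the 4 abundant genes rose by 2.65 to 2.69 on the log2 scale, with limma adjusted p-values from 5.2e-06 to 0.00022. Without PHX-D3 replicate 2 they rose by 2.09 to 2.47.

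**Figure D2:**
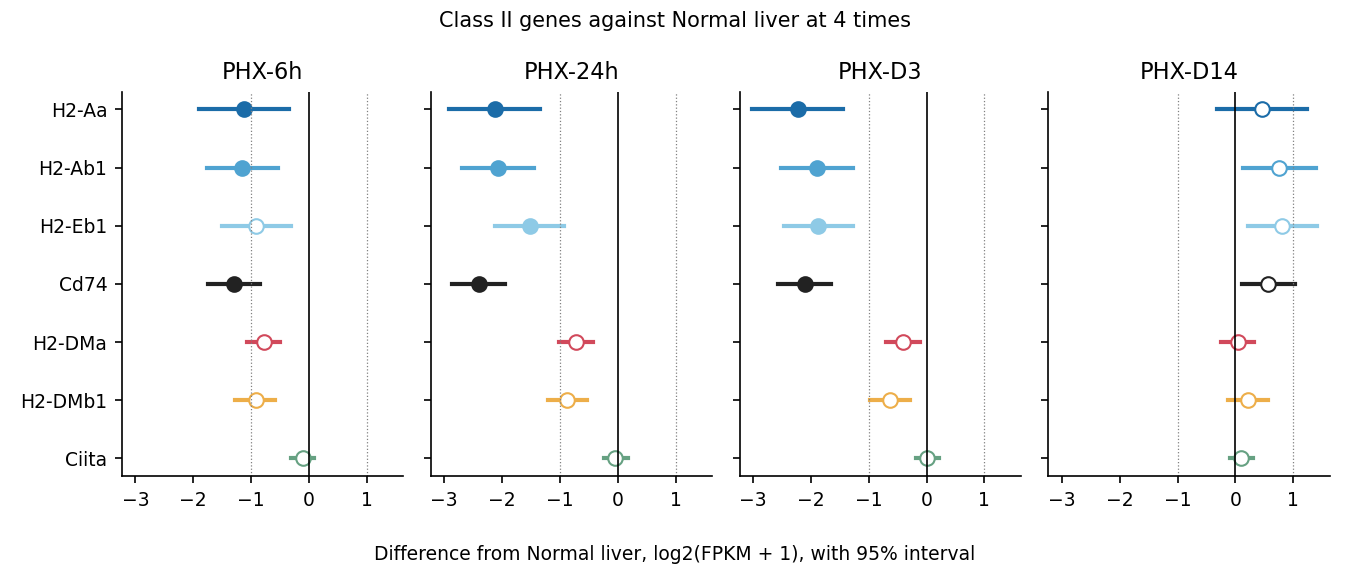
Difference of each gene from Normal liver on the log2(FPKM + 1) scale at 4 times, with 95% intervals from limma; filled points were called and open points were not, and dotted lines mark 2-fold. The abundant genes lie between -2.40 and -1.52 at PHX-24h and between -2.23 and -1.87 at PHX-D3. Without PHX-D3 replicate 2 the latter are between -1.90 and -1.46. At PHX-D14 no point is filled.

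Day 7, which chose the genes, is given as levels. The group means exceeded Normal liver 9.31-fold for Cd74, 9.22-fold for H2-Aa, 11.8-fold for H2-Ab1, 13.3-fold for H2-Eb1, 10.5-fold for H2-DMa, 13.4-fold for H2-DMb1 and 20.2-fold for Ciita. For all 7 genes the lowest PHX-D7 sample was above the highest sample of any other group, by 5.44-fold for Cd74 up to 9.03-fold for H2-DMb1. Of all genes tested, 7.81% were called higher and 1.03% lower at this time, and nothing is read from that share for genes that this contrast chose. The PHX-D7 means were 6.49-fold (Cd74) to 11.9-fold (Ciita) above those of PHX-D14.

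The class II chains kept to a narrower range relative to Cd74 than in level. Leaving out PHX-D3 replicate 2, H2-Aa lay between 36.3% and 52.3% of the Cd74 level of the same sample, H2-Ab1 between 30.6% and 44.2%, and H2-Eb1 between 15.5% and 30.6%, while Cd74 itself varied from 10.1 to 734 FPKM. In PHX-D3 replicate 2 the 3 chains were at 14.2%, 22.8% and 7.69% of Cd74, below all other liver samples. There H2-DMb1 was at 14.4% and H2-DMa at 6.37%, both above all other liver samples. Ciita was at 0.750% to 0.951% of Cd74 in PHX-24h and 0.257% to 1.47% in PHX-D3, against 0.139% to 0.322% in Normal liver and 0.367% to 0.457% in PHX-D7. H2-DMb1 likewise was at 7.54% to 10.2% of Cd74 in PHX-24h and 3.76% to 4.09% in Normal liver. H2-Eb1 was at 22.1% to 30.6% of Cd74 in PHX-24h and 15.5% to 17.3% in Normal liver, and H2-Ab1 at 35% to 41.4% and 31.8% to 34%. These ratios depend on Cd74, which fell at 24 h while the median difference of all genes was -0.02, so a higher ratio says only that a gene fell by less than Cd74 or did not fall.

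**Figure D3:**
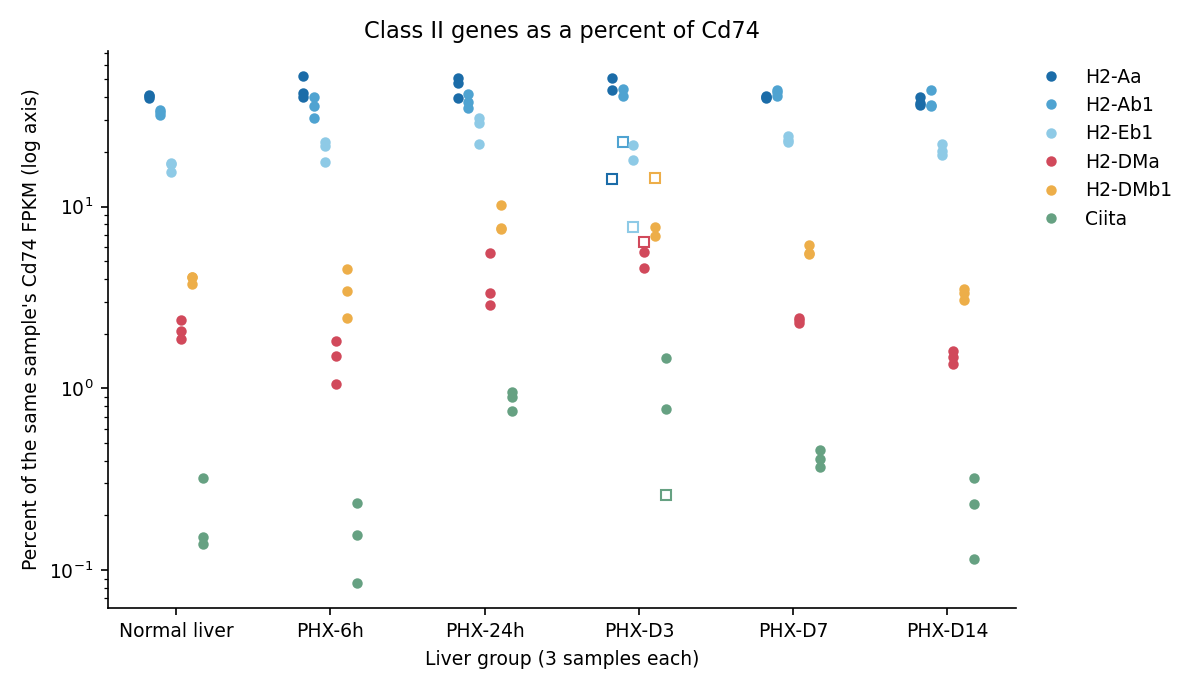
Each gene as a percent of the Cd74 FPKM of the same liver sample (log axis), 3 samples per group; open squares are PHX-D3 replicate 2. In the other samples H2-Aa lies between 36.3% and 52.3%, and the medians of H2-DMa, H2-DMb1 and Ciita are highest at PHX-24h and PHX-D3.

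Over the 18 liver samples, the genes whose log2 levels were most like Cd74 among 11113 ranked were H2-Ab1 (Pearson r 0.995), H2-Aa (0.989) and H2-Eb1 (0.987). H2-DMb1 ranked 28 (0.937), H2-DMa 52 (0.923) and Ciita 227 (0.857). These points share libraries, and the 3 PHX-D7 samples carry much of the range. Without them r was 0.986, 0.964 and 0.962 for the chains, still ranks 1 to 3, and 0.457 for Ciita. Within groups, the deviations from group means correlated at 0.96 to 0.97 between the 3 chains. Between Cd74 and the chains r was 0.84 to 0.90. Between Ciita and the other genes of the set it ranged from 0.02 (H2-DMb1) to 0.51 (H2-Aa). These deviations include PHX-D3 replicate 2, where H2-Aa was at 1.48 FPKM against 7.77 and 7.62, and were not correlated without it.

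Outside the set the 10 genes most like Cd74 were Irf7 (0.979), Psmb10 (0.974), H2-T23 (0.966), a gene listed as 1-Sep, a symbol altered into a date (0.963), Psme1 (0.959), H2-K1 (0.959), B2m (0.957), Cxcl9 (0.956), Shisa5 (0.955) and Ccl5 (0.954). Psmb10 and Psme1 belong to the immunoproteasome and its activator, H2-K1, H2-T23 and B2m to MHC class I, and Irf7 is an interferon-response transcription factor. Irf7 had a mean of 37.9 FPKM in Normal liver, 11.3 in PHX-24h, 10.6 in PHX-D3, 183 in PHX-D7 and 40.9 in PHX-D14. Cxcl9, a chemokine induced by interferon-gamma, had 6.08, 1.79, 2.08, 77.2 and 6.49. Of these 10 genes, 6 stayed in the top 10 by Spearman correlation, 7 without PHX-D3 replicate 2, and 2 (H2-K1 and Irf7) without the PHX-D7 samples. By deviations within groups, with PHX-D3 replicate 2 included, only Psmb10 stayed. The within-group r with Cd74 ranged from 0.128 (Ccl5) to 0.796 (Psmb10).

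Other genes of the pathway were taken from lists. Of 4 further class II chains in the liver table, only H2-DMb2 passed the filter, with a mean of 0.387 FPKM in Normal liver and 2.92 in PHX-D7. H2-Oa and H2-Ob, which restrain H2-DM and mark B cells, reached 1.07 and 0.955 FPKM in PHX-D7. Among 6 genes of class II peptide loading and turnover, the median difference was 1.60 at PHX-D7 (all genes 0.13) and 4 were called higher. Ctss, the protease that removes the invariant chain, went from 31.4 to 175 FPKM, Lgmn from 33.8 to 109, and Ifi30 from 19.2 to 89.5. At PHX-D3 none of these 6 was called and their median was 0.26 (all genes 0.01), or 0.21 without replicate 2. Ctsl was called higher at PHX-6h, at 392 against 192 FPKM.

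The DNA-binding partners of Ciita were not called. None of the 7 genes (Rfx5, Rfxap, Rfxank, Nfya, Nfyb, Nfyc, Creb1) was called at any of the 5 times in limma, and their median difference was -0.11 at PHX-D7. Rfx5 had 1.64 FPKM in Normal liver, 0.874 in PHX-6h and 2.81 in PHX-D7. The most abundant of them, Nfyb and Nfyc, stayed between 8.85 and 13.7 FPKM in all group means.

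Of the genes upstream of Ciita in interferon-gamma signaling, 8 passed the filter, and at PHX-D7 5 were called higher with a median of 1.04. Ifng itself, which did not pass, had group means of 0.00952 FPKM in Normal liver, 0 in PHX-24h and PHX-D3, and 0.799 in PHX-D7. Irf1, an interferon-response transcription factor, fell at PHX-6h by 1.81 on the log2 scale and stood at 29.8 FPKM in PHX-D7 against 15.1 in Normal liver. Socs1, an inhibitor of the pathway, was called higher at PHX-6h (4.97 against 0.448 FPKM). None of the 8 was called at PHX-24h, PHX-D3 or PHX-D14.

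MHC class I presentation, which displays peptides from within the cell, was described in the same way. Of 10 genes 7 were called higher at PHX-D7 (median 1.73), 2 lower at PHX-6h (Tap1 by 1.87 and Psmb9 by 1.58), and 0 at PHX-24h and PHX-D3, where their medians were -0.88 and -0.71 against medians of -1.52 and -1.87 over the 7 class II genes. Without PHX-D3 replicate 2 the PHX-D3 medians were -0.38 and -1.46. The most abundant, B2m, had 2036 FPKM in Normal liver, 1085 in PHX-24h and 3796 in PHX-D7.

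Markers of the cells that carry class II were summed in each sample. The Kupffer cell list (10 genes) summed to 259 to 396 FPKM in Normal liver, 97.3 to 194 in PHX-6h, 215 to 227 in PHX-24h, 221 to 626 in PHX-D3, 1400 to 2040 in PHX-D7 and 178 to 235 in PHX-D14. Its genes were called lower at PHX-6h in 8 cases of 10 and higher at PHX-D7 in 9. At PHX-D3 the sum was 626 FPKM in replicate 2 and 337 and 221 in the others. There none was called lower, with a median of -0.13. Without replicate 2 the median was -0.35, again with none lower, and 1 was called higher. The difference from the class II genes was not tested. The median over the Kupffer list was -0.71 at PHX-24h. At PHX-D14 Clec4f (20.7 against 50.6 FPKM) and Vsig4 (7.34 against 21.3) were called lower, by 1.25 and 1.43. No class II gene was called there, and the difference between these markers and the class II genes was not tested. Timd4, another defining marker, went from 5.36 FPKM in Normal liver to 43.6 in PHX-D7.

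The B cell list (8 genes listed) summed to 1.39 to 2.73 FPKM in Normal liver, 0.199 to 0.306 in PHX-6h, 0.185 to 0.275 in PHX-24h, 0.316 to 2.08 in PHX-D3, 7.03 to 10.4 in PHX-D7 and 1.26 to 2.01 in PHX-D14. Its defining markers were low throughout, with Ms4a1 listed at 0 in PHX-24h and Cd79a at 0.383 FPKM in Normal liver, 0.00456 in PHX-24h and 2.14 in PHX-D7. Only 3 of these genes passed the filter, which Cd79a did through PHX-D7 alone, so their calls at PHX-D7 are not counted here.

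Dendritic cell markers (12 genes) summed to 5.23 to 5.45 FPKM in Normal liver, 3.17 to 4.51 in PHX-6h, 3.31 to 5.02 in PHX-24h, 4.10 to 5.25 in PHX-D3, 15.7 to 20.8 in PHX-D7 and 4.07 to 4.79 in PHX-D14. Of the defining markers Zbtb46, Flt3 and Xcr1, Zbtb46 was the most abundant, at 2.25 FPKM in Normal liver and 2.90 in PHX-D7. Flt3 (0.0682 and 0.246) and Xcr1 (0.112 and 0.672) were near 0. Batf3, a factor of cross-presenting dendritic cells, was called higher at PHX-D7 (1.41 and 6.21).

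All 7 leukocyte markers were called higher at PHX-D7, with a median of 2.63. T and NK cell markers summed to 2.92 to 4.35 FPKM in Normal liver and 50.6 to 55.7 in PHX-D7, and their calls there are not counted because most passed the filter through that group. Gzma, a granule protease of cytotoxic cells, had 0.906 FPKM in Normal liver and 27.5 in PHX-D7, and remained higher at PHX-D14, at 3.25 (log2 difference 1.10). None of 8 hepatocyte genes was called at PHX-D7 in limma (median -0.18), and Alb was at 25711 to 31451 FPKM there and 33690 to 40900 in Normal liver. Endothelial cell markers (9 genes) summed to 149 to 165 FPKM in Normal liver, 83.3 to 101 in PHX-6h and 193 to 295 in PHX-D7. The part of any of these cell types in the class II levels was not tested.

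**Figure D4:**
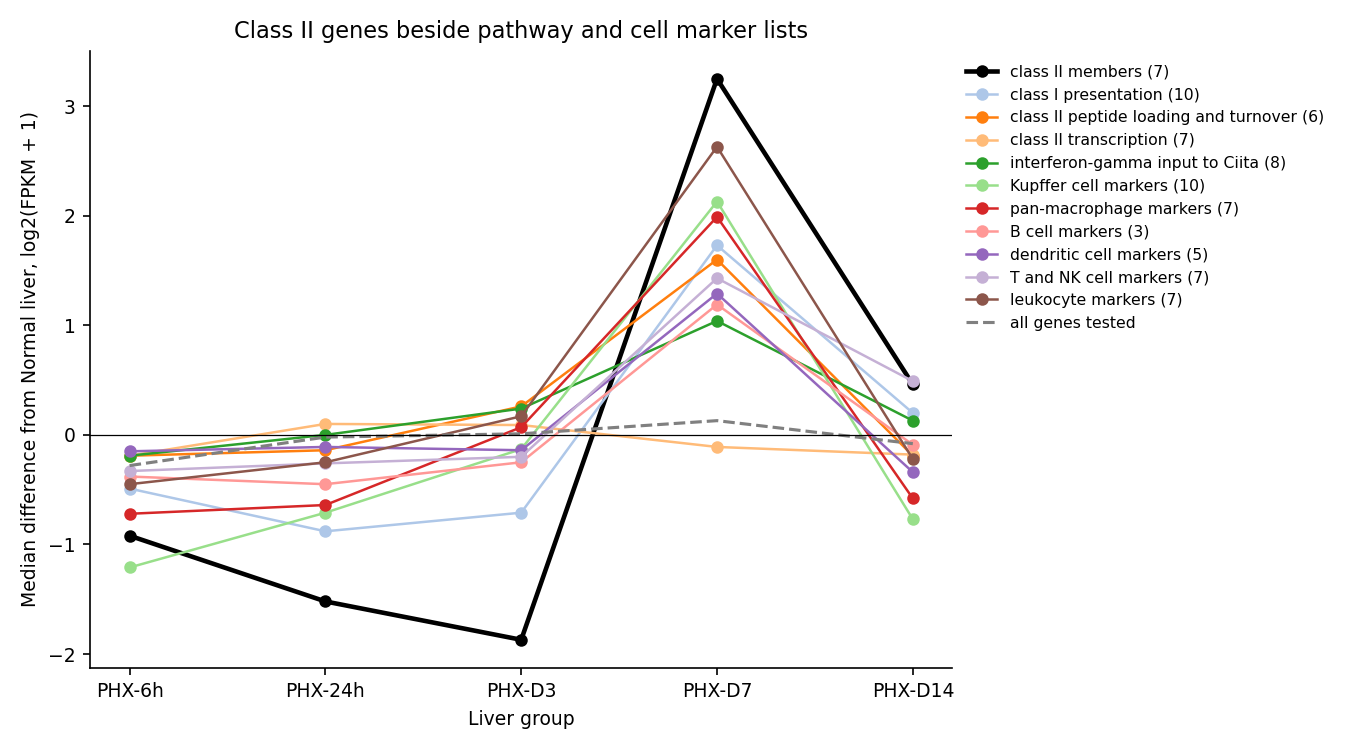
Median difference from Normal liver on the log2(FPKM + 1) scale for the 7 class II genes (black), for pathway and marker lists (genes tested in brackets) and for all genes tested (dashed), at 5 times. At PHX-24h and PHX-D3 the black line lies at -1.52 and -1.87 (the latter -1.46 without PHX-D3 replicate 2), on a scale that compresses lists of low genes such as the B cell markers; its PHX-D7 point (3.25) is from the contrast that chose the genes.

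In primary hepatocytes the same genes were present at low levels. Cd74 had 10.3, 9.65 and 7.99 FPKM, H2-Aa 5.36, 4.88 and 6.27, H2-Ab1 4.97, 4.26 and 4.19, and H2-Eb1 3.59, 3.15 and 3.78, while H2-DMa, H2-DMb1 and Ciita had means of 0.338, 0.256 and 0.0813. Beside them the hepatocytes held leukocyte markers at 18 to 20.9 FPKM summed over 7 genes and Kupffer cell markers at 20.2 to 24.3 over 10 genes. Endothelial cell markers summed to 24.8 to 28.5 FPKM over 9 genes, and Cd79a was at 1.91 FPKM. The part of these cell types in the class II levels of the hepatocytes was not tested.

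In IL6 culture the chains and Cd74 were close to 0, with an exception at D3. Cd74, H2-Aa and H2-Eb1 passed the filter only through the hepatocytes, so they had to differ, and their values are description. A sample of IL6-iMHs of clone-1 also reached the level of the filter for Cd74. H2-Aa had 0 reads in all samples of IL6-iHPCs-D3 and IL6-iHPCs-D14, where 3 reads in a library would be at most 0.0493 and 0.0525 FPKM, against 378 to 404 reads in hepatocytes. Cd74 was at 0.160, 0.0447 and 0.127 FPKM in IL6-iHPCs-D3 and H2-Eb1 at 0.158, 0.309 and 0.290. Leukocyte markers summed to 0.382 to 0.648 FPKM in IL6-iHPCs-D3, and endothelial cell markers to 12.2 to 14.5.

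H2-Ab1 did not follow its partner chain. In IL6-iHPCs-D3 it was at 7.25, 7.69 and 7.40 FPKM, from 492 to 622 reads per library, above all hepatocyte samples, while H2-Aa had no read. The difference from hepatocytes was 0.63 ± 0.04 (limma adjusted p = 2.9e-14), under 2-fold, where SE and p-value measure only the spread between technical repeats. After quantile normalization it was -0.83, so the direction against hepatocytes depends on the scaling. The median of all genes stood 1.14 higher in the cultured cells. By IL6-iHPCs-D14 H2-Ab1 was at 0.408, 0.471 and 0.332 FPKM (-1.96 against hepatocytes), and in the passaged lines at no more than 0.0518. The value of -1.96 is given without a test, because H2-Ab1 passed the filter only through hepatocytes and IL6-iHPCs-D3.

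The counts that follow are description, since the filter let most of these genes in through a group where they are high. Against hepatocytes, 3 of the 6 genes tested were called lower and 0 higher in IL6-iHPCs-D3, where 12.1% of 12328 genes were called lower and 53.9% higher. The counts were 4 lower and 1 higher in IL6-iHPCs-D14 (12.9% and 50% of genes), 4 lower in the mean of the 4 passaged IL6-iHPC lines (11.3% lower, 48.1% higher) and 4 lower in the mean of the 4 IL6-iMH lines (7.79% lower, 24.8% higher). Ciita did not pass the filter in the cells. It was at 0.173, 0.108 and 0.164 FPKM in IL6-iHPCs-D3, above the hepatocyte samples (0.0965, 0.0721 and 0.0752), and at 0.0625 or lower in all other cultures. These values rest on 38 to 51 recovered reads per library in IL6-iHPCs-D3 and 22 to 34 in hepatocytes. The median of all genes stood 1.14 higher on the log2 scale in IL6-iHPCs-D3. Whether the direction of Ciita holds under another scaling was not tested.

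The H2-DM chains took separate courses in culture. H2-DMa was at 1.23, 1.16 and 1.26 FPKM in IL6-iHPCs-D3 and at 2.85, 2.91 and 2.53 in IL6-iHPCs-D14, against 0.412, 0.318 and 0.283 in hepatocytes. The difference at D14 was 1.49 on the log2 scale, given without a test because H2-DMa passed the filter only through these early cultures. With quantile normalization it was 0.26 at D14 and -0.59 at D3, so the direction at D3 depends on the scaling. H2-DMb1, which passed only through IL6-iMHs, stayed at 0.109 to 0.351 FPKM in both early cultures. In the lines, H2-DMb1 was at 2.78, 2.59 and 2.93 FPKM in IL6-iMHs of mouse-2 (P10) and at 2.86, 2.35 and 2.60 in those of mouse-1 (P35), but at 1.06, 0.710 and 0.999 in mouse-1 (P10) and 0.0552, 0.103 and 0 in clone-1 (P20).

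On maturation from IL6-iHPCs to IL6-iMHs, no gene of the 6 tested was called in the mean of the 4 lines, where 6.68% of genes were called higher and 21.4% lower. Beside H2-DMb1, 2 of the 6 were at an unadjusted p under 0.05 in limma, and both missed the call on the fold threshold alone. Cd74 differed by 0.41 ± 0.03 (limma adjusted p = 8.6e-13) and H2-DMa by -0.33 ± 0.03 (1.2e-11). H2-DMb1, at 0.63, reached the filter only in IL6-iMHs, so its p-value is not given, although the fit and the counts include it. For H2-DMa the difference was -0.65 for mouse-1 and -0.62 for mouse-2 at P10, but -0.03 for clone-1 and -0.01 for mouse-1 at P35, so the mean describes none of the lines. For Cd74 it was 0.82 for clone-1 and 0.70 for mouse-1 at P35, but 0.04 for mouse-1 and 0.08 for mouse-2 at P10 (limma adjusted p = 0.63 and 0.26), so here too the mean describes none of them. Limma voom on recovered reads called 2, Cd74 and H2-DMa. Cd74 reached 0.685, 1.01 and 0.773 FPKM in IL6-iMHs of clone-1 and 0.648, 0.742 and 0.693 in those of mouse-1 (P35), from no more than 0.0905 in the IL6-iHPCs of these lines. H2-Aa was listed at 0 or at most 0.0450 FPKM in all IL6-iMHs. For H2-DMb1 the log2 difference on maturation reached 1.36 for the mouse-2 line and 1.21 for mouse-1 at P35, but only 0.18 for mouse-1 at P10 and -0.23 for clone-1 (SE 0.08 each), and is given without a test because the gene passed only through IL6-iMHs. All p-values for the cultured cells rest on technical repeats.

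**Figure D5:**
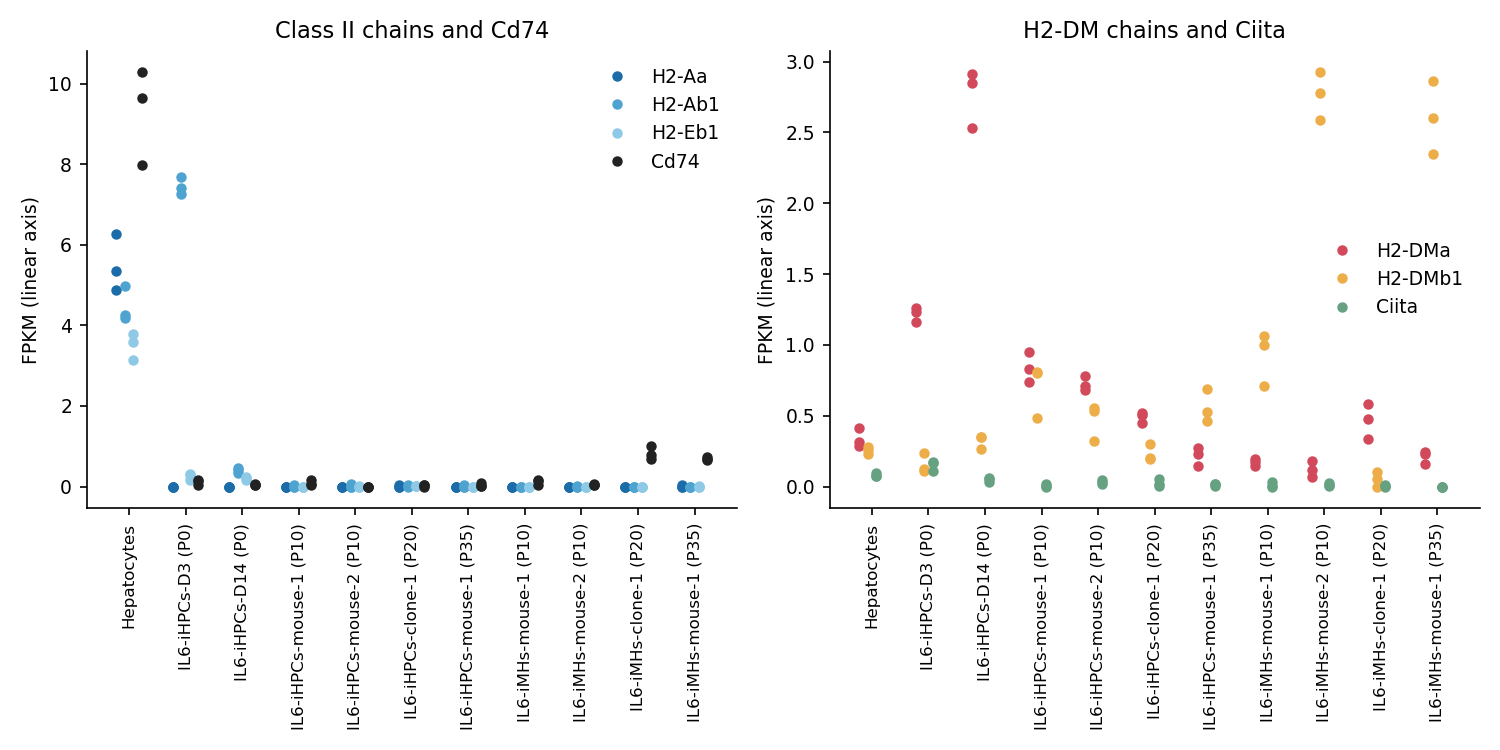
FPKM (linear axes) of the class II chains and Cd74 (left) and of H2-DMa, H2-DMb1 and Ciita (right) in hepatocytes, IL6-iHPCs and IL6-iMHs; each point is 1 of 3 samples of a group. H2-Ab1 alone remains high in IL6-iHPCs-D3, at 7.25 to 7.69 FPKM, and H2-DMb1 is highest in IL6-iMHs of mouse-2 (P10) and mouse-1 (P35).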

How the data were processed

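FPKM values were deposited by the authors for each gene and sample, made with TopHat 1.4.1 and Cufflinks 1.3.0 on mm10 per the submitters' processing notes, from paired-end libraries of mRNA purified with polyT. The roles of these tools are not stated. The values were not scaled further. Symbols listed more than 1 time were averaged. A further table for day 7 lists 480 genes, holds none of the 7 and was not used. Trac, Ighm, Ighd, March1 and H2-Ea were not matched. The 7 genes and all lists were chosen with earlier results of these data known.

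A gene was tested if 3 or more samples reached 1 FPKM, which left 11114 genes for liver and 12328 for cells. On the log2(FPKM + 1) scale, limma 3.58.1 (R 4.3.3) fitted all groups of a table together, with a mean-dependent prior variance, and Benjamini-Hochberg adjustment covered every gene tested. Steps were tested on simulated data. Differences on this scale understate the change of low genes. Named are the 7 genes, the 10 genes most like Cd74, and from each list up to 3 genes called with the largest difference, up to 3 most abundant, and defining cell markers; other genes named (Ctss, Lgmn, Ifi30, Batf3, Gzma and those of PHX-D3 replicate 2 among them) were chosen after their values were seen. With Python 3.11.15, reads were recovered for 99.98% of liver genes and 99.99% of cell genes above 0, at a tolerance of 0.05 from whole numbers. They are known only up to a common factor. In the cells 7201 genes were rescaled, and some recovered values are not whole. Examples are 26.5 for H2-DMa and 1.5 for Ciita in IL6-iMHs-mouse-1 (P10) replicate 2. Figures used matplotlib 3.10.9.

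Alternatives changed the pseudocount (0.1), the filter (none, or 5 FPKM), the scaling (quantile normalization), the fit (replicate block, or only those groups being compared), the fold threshold (none) and the test (limma voom on recovered reads), or left out each sample; leaving out PHX-D3 replicate 2 with the filter applied again, for genes and lists, was chosen after seeing the data. Some results are not reported here.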

Additional observations from a re-analysis of the deposited data

Results flagged for a closer look

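Differences between effects at successive liver times were tested in limma for the 7 genes, PHX-D7 left out. The effect against Normal liver was more negative at 24 h than at 6 h by -1.11 for Cd74 and -1.01 for H2-Aa on the log2 scale. It was higher at day 14 than at day 3 by 2.67 for Cd74, 2.69 for H2-Aa, 2.65 for H2-Ab1 and 2.69 for H2-Eb1, and by 2.09 to 2.47 without the PHX-D3 library that stood apart.

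Among the 4 cell lines, the change of H2-DMb1 on maturation differed by at least 2-fold in 4 of 6 pairs. It was -1.18 for mouse-1 (P10) minus mouse-2 (P10), -1.03 for mouse-1 (P10) minus mouse-1 (P35), 1.59 for mouse-2 (P10) minus clone-1 (P20) and -1.44 for clone-1 (P20) minus mouse-1 (P35), each over technical repeats of single lines and for a gene that passed the filter only through IL6-iMHs. The passage is the same for mouse-1 (P10) and mouse-2 (P10), and the mouse is the same for mouse-1 at P10 and P35. In the other pairs the mouse, the passage and the line cannot be told apart.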

How the results depend on the processing

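At PHX-6h the count of class II genes called (3) became 6 with a pseudocount of 0.1, with limma voom on recovered reads and with no fold threshold, 1 with quantile normalization, and 1 to 5 when single samples were left out. The counts at PHX-24h (4) and PHX-D3 (4) lay between 3 and 6 under every alternative run. At PHX-D14 the count was 0 and reached 2 without Normal replicate 3 (range 0 to 2). The median log2 difference at PHX-D7 was 3.25, and 3.55 with a pseudocount of 0.1 and 3.59 with limma voom. In IL6-iHPCs-D3 the count of 3 became 1 with a filter at 5 FPKM and 5 with no fold threshold, and with that filter the counts became 2 for each of IL6-iHPCs-D14 (from 5), the passaged lines (from 4) and the IL6-iMHs (from 4), since fewer genes passed. On maturation the count of 0 became 1, 2 and 3 with a pseudocount of 0.1, limma voom and no fold threshold. The 3 included H2-DMb1, which passed the filter only through IL6-iMHs. Of the 10 genes most like Cd74, 6 were shared with Spearman correlation and 2 without the 3 PHX-D7 samples.

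With the replicate block, counts remained 3, 4, 4 and 0 at PHX-6h, PHX-24h, PHX-D3 and PHX-D14 and 3, 5, 4, 4 and 0 in the cell comparisons, and the PHX-D7 median was 3.25. Same-numbered samples did not deviate together (median r -0.06 in liver and -0.02 in cells, over 45 and 165 pairs), so numbers were not taken to pair samples.

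Directions turned for Ciita at PHX-D3 (0.01) with a pseudocount of 0.1 (-0.06), quantile normalization (-0.01), limma voom (-0.39) and single samples left out (-0.07 to 0.08), and for H2-DMa at PHX-D14 (0.04) with single samples left out (-0.05 to 0.2). With quantile normalization H2-Ab1 (-0.83) and H2-DMa (-0.59) in IL6-iHPCs-D3, H2-DMb1 in IL6-iHPCs-D14 (-0.96), and H2-DMa (-0.66) and H2-DMb1 (-0.57) in passaged IL6-iHPCs turned lower than hepatocytes. H2-Aa on maturation (0) lay between 0 and 0.01 with single samples left out. Other causes were not tested. Ciita in liver and H2-Aa in culture are limited by depth.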
